A study of Mus musculus with 6 samples.

Results

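Tropomyosins, calponins, transgelins and caldesmon are proteins that bind along actin filaments, and 10 of their genes are described here in mouse embryonic stem (ES) cells. They are the tropomyosin genes Tpm1, Tpm2, Tpm3 and Tpm4, the calponin genes Cnn1, Cnn2 and Cnn3, the transgelin genes Tagln and Tagln2, and the caldesmon gene Cald1. They were taken by gene family from 19938 measured genes, and all 10 were measured. Measured values entered this choice, since the large rise of Tagln was known when the families were chosen, so its values are a description and not independent evidence. The probe set that reads each gene was also chosen by its mean: among the probe sets naming that gene alone, it has the highest mean over all 6 arrays, and that mean takes no account of the groups.

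The arrays compared HM1 cells, a mouse ES cell line, that carried a mouse Prmt6 expression plasmid (pCAGIP.puro with Prmt6, 3 arrays, Prmt6 overexpression) with HM1 cells that carried the pCAGIP.puro plasmid without an insert (3 arrays, control). PRMT6 is a nuclear enzyme that methylates arginines of histones. Both groups were transfected by lipofection, selected for 3 days with 1 ug/ml puromycin, and grown in 15% serum with leukemia inhibitory factor at 1000 U/ml, per the labels. The cells are a selected transfected population of 1 line, and nothing in the labels ties replicates to separate cultures. The p-values therefore cover only the variation among these 6 samples, which may be technical.

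Tropomyosins are coiled-coil dimers that lie end to end along the actin filament and decide which myosins and other proteins can reach it. Calponins and caldesmon bind actin and, in the smooth muscle cell, hold back its myosin-driven movement, while transgelins bind and bundle actin and share the calponin-type repeat. In smooth muscle several of these genes are switched on together with smooth muscle actin by SRF (serum response factor), which binds a promoter element called the CArG box with cofactors of the myocardin family. In other cells the tropomyosins and calponins are parts of stress fibres.

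Promoter sequence was examined for 9 of the 10 genes, all but Tagln, in 11 windows from 250 bases before to 50 bases after a transcription start (RefSeq, GRCm38.p6). Both strands were searched for the CArG box, a 10-base element, and for CATTCC, the element bound by TEAD factors. Only the strict CArG form CCWWWWWWGG was searched, with A or T at each W. Looser forms were not searched, so a window without a match may still hold one. The motifs can share a pair of C bases, which occurred in none of these windows. A CArG box lay in 1 window, that of Cnn2, from base -56 to base -47 relative to the start, against 1.63% of all 32851 windows. CATTCC lay in 3 windows, against 14.7% of all windows. In Tagln2 it lay from -118 to -113 and again from -80 to -75. On the opposite strand it lay from -56 to -51 in Tpm1 and from -153 to -148 in 1 of the windows of Cald1. These 4 sequences are shown because they hold the matches, as the 250 bases before the start in the direction of the gene, with matches in capitals. The positions are chr10:79988350-79988599 on the plus strand for Cnn2, chr1:172499996-172500245 on the plus strand for Tagln2, chr9:67049214-67049463 on the minus strand for Tpm1 and chr6:34598254-34598503 on the plus strand for Cald1.
Cnn2: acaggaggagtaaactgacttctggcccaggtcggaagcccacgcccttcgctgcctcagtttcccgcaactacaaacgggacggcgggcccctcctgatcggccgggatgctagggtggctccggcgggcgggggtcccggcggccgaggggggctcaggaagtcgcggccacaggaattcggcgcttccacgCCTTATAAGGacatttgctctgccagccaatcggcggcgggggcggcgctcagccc
Tagln2: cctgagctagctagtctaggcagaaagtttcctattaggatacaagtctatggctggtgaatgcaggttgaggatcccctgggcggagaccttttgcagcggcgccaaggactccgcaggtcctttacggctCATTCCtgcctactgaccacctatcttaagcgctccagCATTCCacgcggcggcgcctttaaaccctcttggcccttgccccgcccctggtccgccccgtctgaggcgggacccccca
Tpm1: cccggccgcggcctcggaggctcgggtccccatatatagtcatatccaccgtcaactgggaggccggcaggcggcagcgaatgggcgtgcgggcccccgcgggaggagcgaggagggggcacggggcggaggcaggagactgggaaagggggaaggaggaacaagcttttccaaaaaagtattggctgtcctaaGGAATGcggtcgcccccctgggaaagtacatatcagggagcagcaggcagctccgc
Cald1: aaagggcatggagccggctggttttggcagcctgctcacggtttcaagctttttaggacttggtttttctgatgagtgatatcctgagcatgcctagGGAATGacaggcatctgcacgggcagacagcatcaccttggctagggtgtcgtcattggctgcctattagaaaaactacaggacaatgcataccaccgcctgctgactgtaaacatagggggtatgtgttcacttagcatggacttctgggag
A match describes these letters only, and binding was not measured.

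The values are log2 signals from robust multi-array average (RMA) processing, and changes are log2 differences, Prmt6 overexpression minus control. With the Prmt6 plasmid, 8 of the 10 genes rose and 0 fell, while Cnn3 and Tpm3 did not pass (limma, adjusted p under 0.05 over all genes). Over all genes, 7.05% rose and 3.25% fell. Of those calls, 68.5% were rises, against 80.4% with arrays centred on their medians and 65.1% with quantile normalization. All 8 rises were at least 2-fold, a size reached by 1.03% of all genes, and that of Tagln was over 4-fold. The median change was 1.45 over the 10 genes and 0 over all genes. The rise of Tagln was known when the families were chosen, so this median and the counts above, which include it, are descriptions. On all 10 genes the 3 overexpression arrays lay above the 3 control arrays, as they did for 17.0% of all genes. For Tpm3 this held on its chosen probe set only, since the groups overlapped on its other probe sets. The RNA came from bulk cultures, so more cells of a type and more RNA per cell cannot be told apart.

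**Figure D1:**
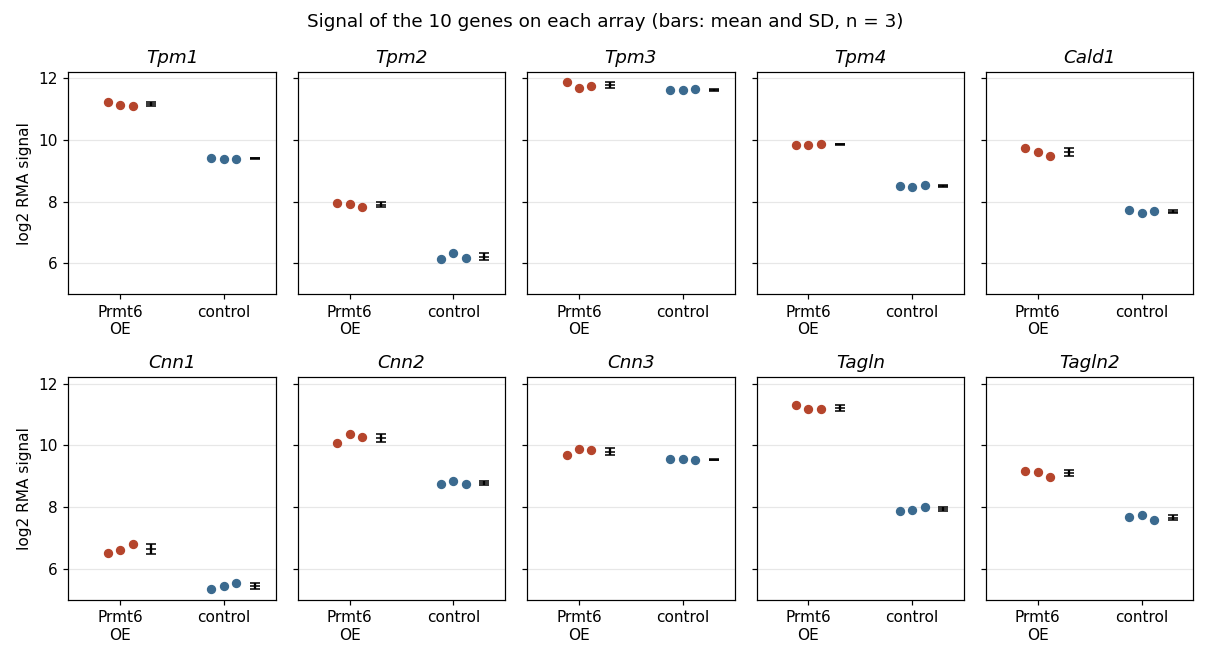
Log2 RMA signal (vertical axis) of each of the 10 genes on the 3 Prmt6 overexpression arrays (red, left) and the 3 control arrays (blue, right), with mean and SD beside them. For every gene, as read by its chosen probe set, the groups are apart. The distance is small for Tpm3 and Cnn3 and widest for Tagln, at 11.16 to 11.31 against 7.87 to 8.0.

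Tagln encodes transgelin, also called SM22-alpha, an early marker of smooth muscle. Its log2 signal was 11.31, 11.16 and 11.16 in Prmt6 overexpression arrays and 7.87, 7.89 and 8.0 in control arrays. The groups were far apart, and the distance was many times the spread within either. The difference was 3.29 ± 0.078 (SE, n = 3 per group), a 9.78-fold rise, and it was the third largest of all 19938 genes. Tagln2, the transgelin found widely outside smooth muscle, had 9.15, 9.13 and 8.98 in Prmt6 overexpression arrays and 7.66, 7.72 and 7.58 in control arrays. It rose 2.70-fold, by 1.43 ± 0.079 on the log2 scale (limma adjusted p = 1.33e-05), again with no overlap.

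Cald1 encodes caldesmon, which binds actin, myosin and tropomyosin and is made in a smooth muscle form and a shorter form of other cells. It had 9.74, 9.60 and 9.49 in Prmt6 overexpression arrays and 7.73, 7.62 and 7.68 in control arrays. The lowest overexpression array lay well above the highest control array. The rise was 3.82-fold, or 1.93 ± 0.084 on the log2 scale (limma adjusted p = 4.28e-06), the largest of the 10 genes after Tagln. The 1 probe set does not separate the forms.

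Of the tropomyosins, 3 of 4 rose and Tpm3 did not pass. Tpm1, whose products serve striated muscle, smooth muscle and stress fibres, had 11.23, 11.13 and 11.11 in Prmt6 overexpression arrays and 9.42, 9.39 and 9.39 in control arrays. The values within each group were close together, and the rise was 3.38-fold (1.76 ± 0.07, limma adjusted p = 2.59e-06). Tpm2, a tropomyosin of skeletal and smooth muscle, had 7.96, 7.92 and 7.81 in Prmt6 overexpression arrays and 6.13, 6.34 and 6.16 in control arrays. It rose 3.22-fold (1.69 ± 0.085, limma adjusted p = 8.33e-06), and the groups did not overlap. Tpm4, a tropomyosin of non-muscle cells, had 9.85, 9.85 and 9.87 in Prmt6 overexpression arrays and 8.49, 8.48 and 8.55 in control arrays. It rose 2.55-fold (1.35 ± 0.066, limma adjusted p = 7.77e-06). Isoforms made from 1 tropomyosin gene are not told apart here, since each gene is read by 1 value.

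Tpm4 was also named on a probe set shared with Gm7809, which RefSeq lists with the synonym Tpm4-ps. This probe set had 10.74, 10.86 and 10.73 in Prmt6 overexpression arrays and 9.43, 9.32 and 9.33 in control arrays. Its difference was 1.42 ± 0.074 (limma adjusted p = 0.000337 in a fit over all 35556 probe sets, added after seeing the data). The transcripts of Tpm4 and Gm7809 cannot be told apart on it, and it was not used for the gene-level values. Of the 20 named probe sets nearest it in number, 0 belong to genes on the Tpm4 chromosome, against 18 for the chosen probe set.

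Tpm3, a tropomyosin of most cell types and of slow skeletal muscle, had 11.88, 11.69 and 11.75 in Prmt6 overexpression arrays and 11.61, 11.61 and 11.65 in control arrays. The groups did not overlap, but by a narrow gap, and the difference of 0.15 ± 0.076 did not pass (limma adjusted p = 0.274). It is the only one of the 10 genes with more than 1 single-symbol probe set. Of its 4 probe sets, the other three differed by 0.04, -0.05 and 0.19 on the log2 scale, and none passed (limma adjusted p from 0.254 to 0.818 over all single-symbol probe sets). The platform annotation gives no position for them. Of the 20 named probe sets nearest in number, 20 belong to genes on the chromosome of Tpm3 for the probe set with the difference of 0.19, and 0 for each of the remaining 3, including the one with the highest mean. For the chosen probe sets of the remaining 9 genes that count was between 18 and 20. What those 3 probe sets lie on was not analysed here. The probe set numbered among genes of the Tpm3 chromosome had 7.84, 7.66 and 7.68 in Prmt6 overexpression arrays and 7.52, 7.68 and 7.40 in control arrays, so the groups overlapped there.

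Of the calponins, 2 of 3 rose. Cnn1, the calponin of differentiated smooth muscle, had 6.50, 6.61 and 6.80 in Prmt6 overexpression arrays and 5.32, 5.43 and 5.54 in control arrays. Its groups did not overlap, and it rose 2.31-fold (1.21 ± 0.099, limma adjusted p = 0.000134), the smallest of the 8 rises. Cnn2, a calponin of many non-muscle and smooth muscle cells whose promoter window holds the CArG box printed above, had 10.08, 10.35 and 10.28 in Prmt6 overexpression arrays and 8.73, 8.84 and 8.73 in control arrays. It rose 2.77-fold (1.47 ± 0.089, limma adjusted p = 2.37e-05). Cnn3, the acidic calponin, had 9.67, 9.87 and 9.83 in Prmt6 overexpression arrays and 9.54, 9.54 and 9.52 in control arrays. The overexpression arrays were all higher, by 0.26 ± 0.077, and the difference did not pass (limma adjusted p = 0.0763). Without overexpression replicate 1, the lowest of its group, it passed (0.0295), as it did with arrays centred on medians (0.0376).

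**Figure D2:**
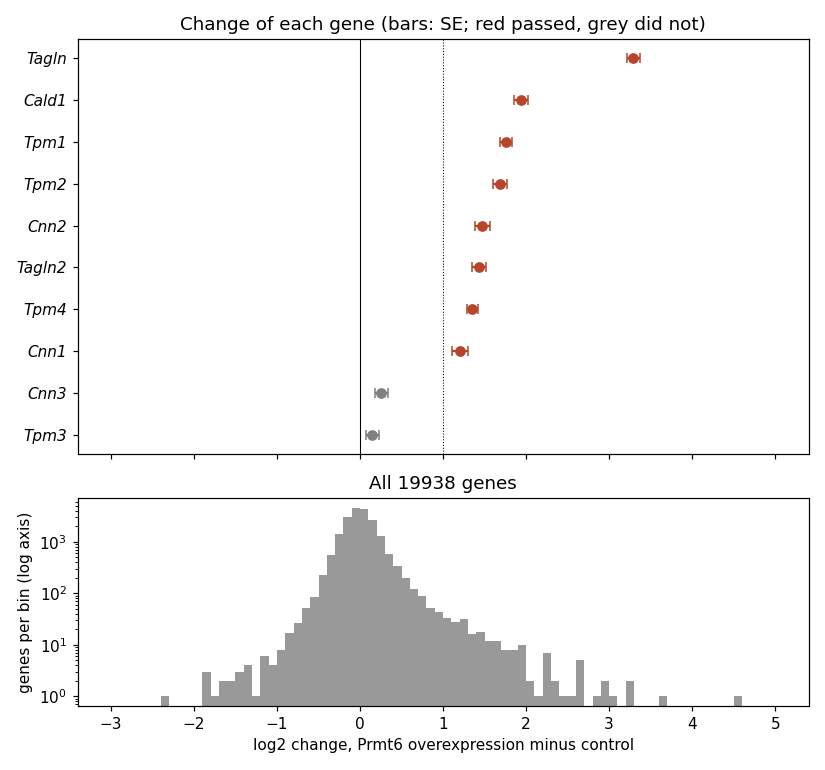
Upper panel: log2 change, Prmt6 overexpression minus control, of each of the 10 genes with its SE, in red where the limma test passed and in grey for Cnn3 and Tpm3, with a dotted line at 2-fold. Lower panel: number of genes (log axis) in each bin of change over all 19938 genes, most of them near 0, while the 8 red genes lie between 1.21 and 3.29.

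The log2 difference between 2 genes was taken on each array for the 10 pairs within families, and both groups were compared by exact two-sided permutation. With 3 arrays a group the smallest possible p is 0.1, which 9 of the 10 pairs reached (0.111 after Benjamini-Hochberg adjustment over the 10 pairs), so no pair can pass 0.05. The 95% intervals use the pooled SD of the arrays. Tagln less Tagln2 was 2.16, 2.03 and 2.18 in Prmt6 overexpression arrays and 0.21, 0.17 and 0.42 in control arrays, which is 1.86 more with the plasmid (interval 1.60 to 2.11). The ratio of the Tagln signal to the Tagln2 signal was thus 3.62-fold higher with the plasmid, with the arrays of the groups apart. Since the rise of Tagln was known beforehand, this pair is a description and not independent evidence.

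Among the tropomyosins, Tpm3 was set against the other 3, read by its probe set with the highest mean. As given above, 0 of the 20 named probe sets nearest that one in number belong to genes on the Tpm3 chromosome. The intervals do not cover the doubt about what it reads. Tpm1 changed by 1.61 more than Tpm3 on the log2 scale (interval 1.51 to 1.70), Tpm2 by 1.54 more than Tpm3 (1.29 to 1.79) and Tpm4 by 1.20 more than Tpm3 (1.04 to 1.36). Tpm1 and Tpm2, the tropomyosins best known from muscle, differed in change by 0.07 (interval -0.14 to 0.28), and their arrays overlapped (exact permutation p = 0.6, n = 3 per group). Against Tpm4, the change was 0.41 larger for Tpm1 (0.27 to 0.54) and 0.34 larger for Tpm2 (0.08 to 0.60). Among the calponins, Cnn2 changed by 1.21 more than Cnn3 (1.10 to 1.32) and Cnn1 by 0.95 more than Cnn3 (0.68 to 1.22). Cnn2 changed by 0.26 more than Cnn1, with an interval of -0.03 to 0.56 that includes 0.

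**Figure D3:**
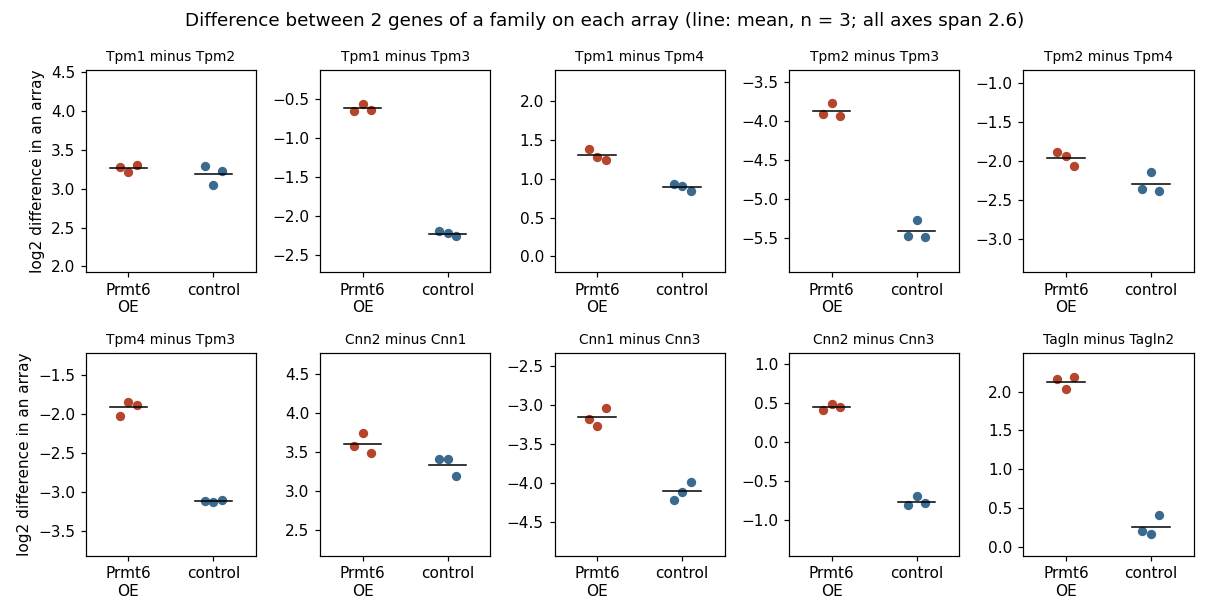
Log2 difference between 2 genes of a family on each array (vertical axis, every panel spanning the same range), with Prmt6 overexpression in red on the left, control in blue on the right and lines at the means. The groups overlap for Tpm1 minus Tpm2 and are farthest apart for Tagln minus Tagln2, at a mean of 2.12 against 0.27.

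Partners of these proteins were read from fixed lists. Here and in the lists below, counts stand against 7.05% of all genes that rose and 3.25% that fell. Tropomodulins and leiomodins, which bind tropomyosin at the pointed end of the filament, had 0 of 7 genes called, with a median change of -0.01. The smallest p in that list belonged to Tmod3, at 0.20 ± 0.085 (limma adjusted p = 0.185). Troponins, the calcium switch that sits on tropomyosin in striated muscle, had 0 of 8 called, with a median of -0.10. Tnnc1, at 0.32 ± 0.099, came closest (limma adjusted p = 0.0861), and it passed in some alternatives, such as arrays centred on medians (0.0484). 
Relatives of the transgelins and calponins differed in direction. Tagln3, the transgelin of neurons, had 6.47, 6.47 and 6.62 in Prmt6 overexpression arrays and 6.77, 6.91 and 6.79 in control arrays, and fell by 0.30 ± 0.079 (limma adjusted p = 0.0461). Smtn, the gene of smoothelin, rose by 0.28 ± 0.073 (0.0467). The call of Smtn ended on leaving out any 1 array (adjusted p from 0.05001 to 0.171) or using quantile normalization (0.0508), and that of Tagln3 on leaving out any 1 array other than overexpression replicate 3 (0.0917 to 0.163), and also when arrays were centred on medians (0.0645). Smtnl1 and Smtnl2 did not pass, so 1 of 4 rose and 1 fell.

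Of 15 other contractile genes of smooth muscle, 3 rose, 1 fell and 11 did not pass, with a median change of 0.14. Acta2, smooth muscle actin, had 11.23, 11.12 and 11.10 in Prmt6 overexpression arrays and 6.47, 6.72 and 6.68 in control arrays (4.53 ± 0.088). Csrp1, a LIM protein of smooth muscle and other cells, rose by 2.29 ± 0.076, and Smtn rose as given above. Synm, which encodes the intermediate filament protein synemin, fell by 0.65 ± 0.075 (limma adjusted p = 0.000946). Myh11, the myosin heavy chain that defines smooth muscle, had 5.26, 5.26 and 5.24 in Prmt6 overexpression arrays and 5.21, 5.25 and 5.26 in control arrays. The groups overlapped, and the difference was 0.01 ± 0.066 (0.934). Mylk, Myl9, Des, Actg2 and Lmod1, at -0.08, 0.16, -0.04, 0.14 and 0.06, did not pass either.

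Non-muscle myosin II, the motor of stress fibres, had 4 of 7 subunit genes higher and 0 lower, with a median of 0.47. The heavy chains Myh9 and Myh10 rose by 0.71 ± 0.073 and 0.55 ± 0.08, and the light chains Myl12a and Myl6 by 0.65 ± 0.069 and 0.47 ± 0.075 (limma adjusted p from 0.000502 to 0.00534). These rises were smaller than those of the 8 called genes above, which lay between 1.21 and 3.29.

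SRF and its cofactors were measured by 7 genes, of which 1 rose. Elk3, an ETS factor that joins SRF on DNA, rose 2.03-fold (1.02 ± 0.087, limma adjusted p = 0.000172). Srf itself had 7.84, 7.58 and 7.78 in Prmt6 overexpression arrays and 7.63, 7.64 and 7.61 in control arrays, so the groups overlapped (0.11 ± 0.085, adjusted p = 0.499). Myocd, the gene of myocardin, was at 0.06 ± 0.08 (0.732), and Mrtfa and Mrtfb, the myocardin-related cofactors, at 0.02 and -0.14. These values concern transcripts, and neither the location nor the activity of the proteins was measured.

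Of 22 genes known as SRF targets, most of them of the cytoskeleton, 21 were measured, 15 rose, 0 fell and 6 did not pass. The median change was 0.81, and over all genes 7.05% rose. The list was chosen with the rise of Acta2 known and shares Acta2, Actg2 and Myl9 with the smooth muscle list. It also shares Myh9 and Myl9 with the myosin list and Srf with the list of SRF and its cofactors. Shared genes are counted in each list, so the lists are not separate evidence. After Acta2, its largest rises were those of Fhl2, a LIM-only cofactor (1.83 ± 0.084), Actn1, which crosslinks actin filaments (1.49 ± 0.072), and Ccn1, a secreted matrix protein (1.35 ± 0.081).

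**Figure D4:**
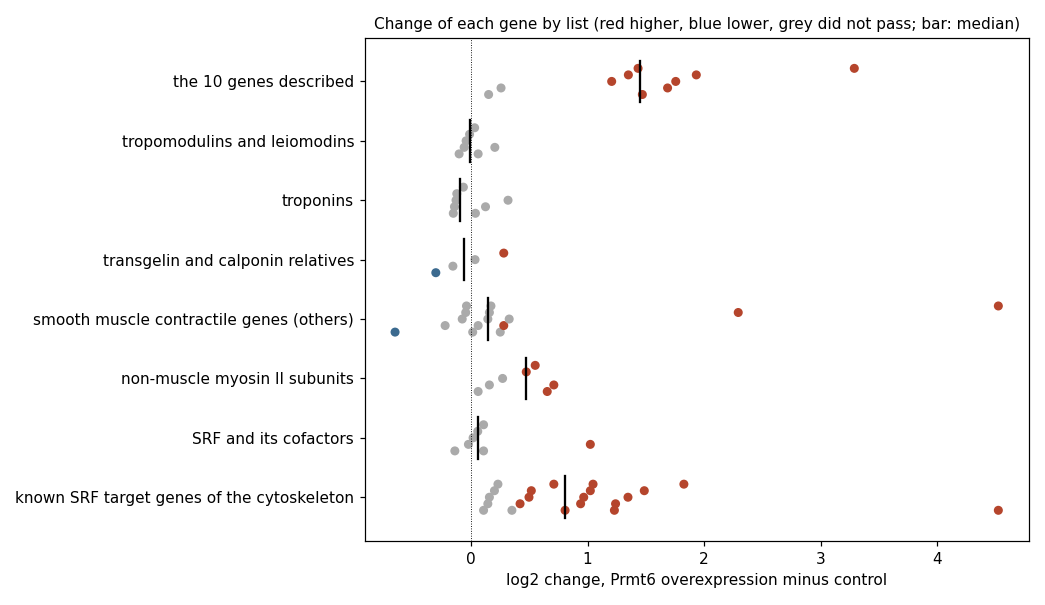
Log2 change, Prmt6 overexpression minus control (horizontal axis), of each measured gene in 8 groups down the page, namely the 10 genes described and 7 lists of partners and regulators. Red genes were called higher, blue ones lower and grey ones did not pass, and black bars are medians, at 1.45 for the 10 genes, 0.81 for the SRF targets and -0.10 for the troponins.

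By distance between mean-centred log2 values over the 6 arrays, which reads both the size of the group difference and the scatter of arrays, the 3 genes closest to Tagln were the keratin gene Krt18 (0.18), Ptgs2 of prostaglandin synthesis (0.41) and the phospholipid-binding Anxa5 (0.43). Those closest to Cald1 were Vgll3 (0.07), Gprc5a (0.15) and the protease gene Capn2 (0.15), and those closest to Tpm1 were the imprinted Nnat (0.11), Emp3 (0.14) and the receptor gene Tnfrsf12a (0.15). Vgll3, a cofactor of TEAD factors, had 7.95, 7.80 and 7.76 in Prmt6 overexpression arrays and 5.92, 5.81 and 5.87 in control arrays. These are the smallest distances among the 19938 genes once the 10 genes described were left out, and they carry no test.

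Markers of other cell types were read in the same arrays, in which 7.05% of all genes rose and 3.25% fell. Of 8 smooth muscle markers, Smtn rose and 7 did not pass. All 8 also stand in the smooth muscle or SRF lists above, so they are not separate evidence. Acta2, Csrp1, Tagln and Cnn1, which rose, were not in this marker list. The summed linear signal of the markers (the values taken out of log2) was 511 to 538 in Prmt6 overexpression arrays. It was 446 to 483 in control arrays. Of 13 markers of cardiac and skeletal muscle, 2 rose, the actins Actc1 (1.23 ± 0.10) and Acta1 (1.05 ± 0.078). Both actins are also counted among the SRF targets above. The other 11 markers did not pass, and the median change of the list was -0.04. Its sum was 983 to 1044 in overexpression and 772 to 814 in control. Sums of linear signal weigh the brightest genes most, so a few genes can move them. Of 10 fibroblast markers, 5 rose, and the sum was 612 to 670 in overexpression and 375 to 413 in control. Col1a1 rose by 1.34 ± 0.12 and Col1a2 by 0.98 ± 0.088, followed by Pdgfrb (0.47 ± 0.089) and Dcn (0.44 ± 0.11). The Pdgfrb call was lost on leaving out control replicate 1 (limma adjusted p = 0.0567), and that of Dcn on leaving out replicate 1 or 3 of either group (0.0816 to 0.130) and with array weights (0.0501). Leaving out 1 array gave between 2 and 4 fibroblast calls.

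Of 8 trophoblast markers, 4 rose, Krt7 (2.34 ± 0.11), Hand1 (0.98 ± 0.072), Plac1 (0.80 ± 0.082) and Eomes (0.55 ± 0.086), and the sum was 862 to 928 in Prmt6 overexpression arrays and 520 to 548 in control arrays. Of 8 endoderm markers, Sox17 (0.58 ± 0.13) and Gata6 (0.43 ± 0.075) rose, and the sum was 320 to 363 in overexpression and 298 to 304 in control. The Sox17 call ended without control replicate 1, 2 or 3 (limma adjusted p from 0.0634 to 0.0869). Of 10 ES cell markers, 3 fell and 7 did not pass, and the sum was 13611 to 13885 in overexpression and 14674 to 15112 in control. Tdgf1, Nanog and Sox2 fell by 0.35, 0.34 and 0.29. Those calls ended without control replicate 1, 2 or 3 for all 3 genes, for Tdgf1 and Sox2 also without overexpression replicate 2, and for Sox2 also without overexpression replicate 1 or 3 (0.0511 to 0.163) and with arrays centred on medians (0.111). RMA gives no value of 0 and no detection call here, and the part of other cell types in the rises above was not tested.

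Prmt6 was higher in the arrays that carried its plasmid, at 7.32 to 7.40 in Prmt6 overexpression arrays and 6.58 to 7.12 in control arrays (0.50 ± 0.13, limma adjusted p = 0.0406). That call was lost on leaving out control replicate 1, control replicate 2 or any 1 overexpression array (0.0788 to 0.119). Arrays correlated at 0.986 to 0.990 within overexpression, 0.991 to 0.992 within control and 0.980 to 0.987 between the groups, across all probe sets, so the lowest value within overexpression lay below the highest between the groups. Array weights, which rate how closely an array follows its group, were 0.453 and 0.568 for overexpression replicates 1 and 3 and 1.19 to 1.78 for the other arrays. The 8 rises of the 10 genes passed without either of these arrays.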

How the data were processed

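RNA of 6 samples was measured on 1 Affymetrix array each. The deposited values are log2 signals made by RMA, per the submitters' processing notes. The sources used here give no software, version or genome build for it. RMA equalizes the distributions of arrays, which would take out most of a change common to all genes. Array medians were 5.54 to 5.59 in Prmt6 overexpression and 5.60 to 5.62 in control. Precision is limited by the number of arrays.

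Names came from the platform annotation, which gave 1 symbol for 21789 of 35556 probe sets, and all 10 genes matched RefSeq (GRCm38.p6) by gene identifier. Groups followed the sample labels. Prmt6 overexpression was compared with control over all 19938 genes in R 4.3.3 with limma 3.58.1 (linear models with empirical Bayes variances, two-sided, no filter, no covariates, Benjamini-Hochberg adjustment over all genes, threshold 0.05). The procedure was tested on simulated data. Figures used matplotlib 3.10.9.

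The genes, lists and tests were chosen with earlier results of these data known. The naming rule took the 10 genes, the 3 nearest profiles of the 3 most changed, up to 4 passing genes of each list (or the smallest p) and 6 genes in any case. The results of 1 list are not reported here. Others were named after their values were seen. Alternatives were a replicate block, leaving out arrays, dim-gene filters, 2 scalings, other probe set rules, variance priors, array weights and thresholds.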

Additional observations from a re-analysis of the deposited data

How the results depend on the processing

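The 8 rises of the 10 genes kept their direction and their side of the threshold under all 18 alternatives run for each gene, with adjusted p at most 0.00140 (limma, Cnn1). Each of these 8 genes has 1 single-symbol probe set. Averaging probe sets, testing each probe set on its own and reading Tpm3 by another probe set therefore left their values unchanged. Those settings could hardly move these calls. The number of the 10 genes called was 8 to 9 when 1 array was left out, the ninth being Cnn3, which also passed when only genes above the 30th percentile (adjusted p = 0.0348) or above the median (0.0165) of gene means were tested, and with a robust, trended variance prior (0.00844) and array weights (0.0225). The cause was not tested. Tpm3 passed under none of its 18 alternatives (0.0695 to 0.519). Over all genes, rises numbered 862 to 1232 and falls 280 to 763 with 1 array left out, against 1405 and 647. Falls numbered 280 to 328 without any 1 control array or overexpression replicate 2, and 763 without overexpression replicate 1, while rises numbered 862 and 898 without control replicates 1 and 3. Falls numbered 990 and 1079 under the 2 filters, 1115 with the trended and robust prior and 1098 with array weights. Rises numbered 1832 of 13961 genes above the 30th percentile and 1937 of 9971 above the median. They numbered 2061 with that prior, 1706 with array weights and 1838 with arrays centred on medians, against 1405 of 19938 in the main fit. The settings that called Cnn3 without leaving out an array thus called more rises over all genes. At adjusted p under 0.01 there were 765 rises and 219 falls, and with at least 1.5-fold 532 and 134. Tpm1 minus Tpm3 moved to 1.68 when probe sets of a gene were averaged and to 1.56 with the other Tpm3 probe set, chosen after seeing the data. Without an array it lay between 1.58 and 1.62. With only the 250 bases before the start, 1.47% of windows held a CArG box and 12.6% CATTCC. Myh11 turned to -0.0017 without control replicate 1 and lay at up to 0.023 without another array.

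Same-numbered arrays did not deviate together (correlations of deviations 0.00044, -0.054 and -0.087). With deviations from means of 3 arrays, this cannot show whether the numbers pair the samples. With the replicate block 8 of the 10 genes rose, as without it, while 1018 of all genes rose and 383 fell. Among genes named, the block ended the calls of Prmt6 (limma adjusted p = 0.0615), Smtn (0.104), Tagln3 (0.109) and Dcn (0.0849) and those of Tdgf1, Nanog and Sox2 (0.0615 to 0.116), and no other. Of the lists, non-muscle myosin II had 2 rises at 1.5-fold or more, against 4. Fibroblast rises were 3 with the replicate block, 3 of the 4 left without genes under the median and 2 at either stricter threshold, against 5 of 10. With the block and at the stricter thresholds 0 ES cell markers fell, against 3. Detection above background was not tested, which limits the dimmest markers most.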
